A study of Rattus norvegicus with 6 samples.

Results

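Reads of nuclear mature tRNA that carry a single internal mismatch were examined in AR42J cells, an established rat line of the exocrine pancreas. A read was taken when it aligned to a nuclear mature tRNA, had 1 mismatch and no inserted or deleted base, and had that mismatch between read base 3 and 3 bases before the read's end. In all 6 libraries 154797 reads of 23794 distinct sequences met this rule, out of 1671615 reads of 67949 sequences aligned to tRNA. The rule used no comparison between the groups. The untreated group held 3 libraries of AR42J cells with no treatment, and the taurocholate group held 3 libraries of the same line given 200 µM sodium taurocholate, a bile salt, for 30 min. Total RNA of both groups went through the same steps before library preparation, per the labels' protocols: amino acids were taken off the tRNA, terminal phosphates were repaired, and m1A and m3C were demethylated so that reverse transcriptase could pass them. The labels name 1 cell line and do not tell if its replicates were grown apart, so each p-value is set by how far these 6 libraries scatter, and that scatter may be technical only.

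The label of exocrine pancreas was checked with miRNA precursors. mir-148a, abundant in pancreas, had 951623 to 1540696 reads per library, whereas the acinar markers mir-216a, mir-216b and mir-217 had at most 4 reads in any library. The neuroendocrine markers mir-375 and mir-7a-1 had 10 to 282 and 156222 to 238737 reads, and the liver marker mir-122 had 26 to 82. The stromal marker mir-143 had 36443 to 46777 reads and mir-145 1522 to 2528. Of the blood cell markers, mir-142 had 5733 to 11472 reads, mir-451 123 to 3204 and mir-223 1 to 13. Of the muscle markers, mir-206 had 65 to 121, mir-133a 1 to 212 and mir-1 3 to 49.

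tRNAs are the most densely modified RNAs of the cell. Some modified bases pair in a different way from the base in the gene, so that reverse transcriptase copies them as another base and the read then differs from its reference at that place. Inosine, made from A at the wobble base of the anticodon, pairs like G and is read as G. Methyl groups on the pairing face, as in m1A at base 58, m3C at base 32, m1G at bases 9 and 37 or m22G at base 26, stop the enzyme or make it insert a mixture of bases. Modifications off the pairing face, such as dihydrouridine, pseudouridine and 5-methylcytosine, usually leave no mismatch. A mismatch can also come from a gene copy that the reference set lacks, a polymorphism of the cell line or a sequencing error, and these were not told apart from modification here except where values below bear on it.

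Each mismatch was placed on the tRNA from the alignment start and numbered by the usual tRNA scheme, in which the anticodon is at bases 34 to 36 and the CCA end closes at base 76. A site is a base of the tRNAs of 1 anticodon, or of a set of anticodons that a read fits equally. Its mismatch share is the number of reads with an internal mismatch there as a percentage of the reads that cover it at an internal place. In total 1940 sites of 54 anticodons or sets had at least 200 covering reads in each group, with a median of 4750.5 covering reads over the 6 libraries (411 to 171893). An alignment holds at most 1 mismatch, so a read with a mismatch elsewhere, at its ends for example, counts as covering and cannot also show the site's mismatch. Shares are therefore lower than among reads free of other mismatches. Near a dense mismatch few reads are left to show another. Of the covering reads, 99.8% at Pro-AGG base 47 had a mismatch elsewhere, and 84.4% and 82.1% at Arg-CCT bases 37 and 47. A low share at such a base says little about it.

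The reads below carry the main findings. For each site the most abundant read without a mismatch is followed by the most abundant mismatched read, written 5′ to 3′ as DNA, with the base of the site in capitals.
Pro-AGG base 34, no mismatch: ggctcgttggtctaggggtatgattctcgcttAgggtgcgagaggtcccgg
Pro-AGG base 34, mismatch: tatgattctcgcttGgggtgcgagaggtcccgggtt
Val-AAC base 34, no mismatch: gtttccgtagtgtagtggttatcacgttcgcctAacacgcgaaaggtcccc
Val-AAC base 34, mismatch: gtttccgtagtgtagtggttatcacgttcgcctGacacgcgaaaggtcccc
Arg-CCT base 32, no mismatch: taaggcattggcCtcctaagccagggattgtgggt
Arg-CCT base 32, mismatch: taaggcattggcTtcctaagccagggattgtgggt
Gly-CCC base 58, no mismatch: tcgAttcccgggcggcgcacca
Gly-CCC base 58, mismatch: tcgTttcccgggcggcgcacca
Gly-CCC/GCC base 58, no mismatch: tcgAttcccggccaatgcacca
Gly-CCC/GCC base 58, mismatch: tcgTttcccggccaatgcacca
Tyr-GTA base 58, no mismatch: tcgAttccggctcgaaggacca
Tyr-GTA base 58, mismatch: tcgTttccggctcgaaggacca
Gly-TCC base 58, no mismatch: tcgAttcccggccaacgcacca
Gly-TCC base 58, mismatch: tcgTttcccggccaacgcacca
Lys-TTT base 69, no mismatch: tccctgttcAggcgcca
Lys-TTT base 69, mismatch: tccctgttcGggcgcca
Leu-CAG base 16, no mismatch: gtcaggatggccgagCggtctaagg
Leu-CAG base 16, mismatch: gtcaggatggccgagTggtctaagg

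Mismatches were rare at most sites and dense at a few. The median share over the 1940 sites was 0.188%. At 499 sites it was under 0.1%, at 1205 between 0.1% and 0.5%, and at 87 it was 1% or more. The 5 sites with the most mismatched reads held 29.1% of all mismatched reads at covered sites and the 20 with the most held 52.4%. By region, 22 of 99 sites in the T loop (22.2%) reached 1%, against 9 of 156 in the anticodon loop (5.77%), 23 of 396 in the acceptor stem (5.81%) and 2 of 249 in the anticodon stem (0.803%). By canonical base, the median was highest at base 58, with 4.01% over 22 sites, followed by base 6, with 0.934% over 26 sites, and base 73, with 0.625% over 38 sites.

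The overall rate was 0.493%, 0.533% and 0.553% of internal bases in untreated libraries 1, 2 and 3, and 0.475%, 0.530% and 0.581% in taurocholate libraries 1, 2 and 3. The means were 0.526% ± 0.030 and 0.529% ± 0.053 (SD, n = 3 each), and the groups overlapped. The same rate in miRNA reads of these libraries was 0.277% ± 0.0191 and 0.244% ± 0.0297. Nuclear mature tRNA reads without an inserted or deleted base numbered 179612 to 322743 per library. Libraries numbered 1 stood apart in another kind of mismatch: a mismatched G as the last base was in 22.3% of these reads in taurocholate 1 and 7.84% in untreated 1, against 1.36% to 2.08% in the other 4. Reads of 51 nt, the longest recorded, were 12.6% in taurocholate 1 and 9.62% in untreated 2 and 1.16% to 5.31% elsewhere. The part of these library features in the results below was not tested beyond the values given without those libraries or reads.

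At the wobble base, A34, nearly every read of both well covered tRNAs, Pro-AGG and Val-AAC, had G. A34 is converted to inosine by the ADAT2/ADAT3 deaminase in a fixed set of tRNAs, which lets a single anticodon read codons ending in U, C or A. In Pro-AGG, G replaced A in 3653 of 3668 covering reads. Untreated libraries 1, 2 and 3 had 99.8%, 99.5% and 99.3%, and taurocholate libraries 99.5%, 99.4% and 99.9%. The groups overlapped and each library was within 1 point of the others. In Val-AAC the share was 99.1%, 98.3% and 97.9% in untreated and 96.4%, 97.3% and 96.9% in taurocholate libraries, with means of 98.4% ± 0.637 and 96.9% ± 0.470 (SD, n = 3 each). All 3 taurocholate libraries lay below all 3 untreated ones, with a log2 odds ratio of -0.93 (SE 0.43), but the edgeR quasi-likelihood adjusted p was 0.998 (unadjusted 0.0405). G was 99.9% of the Val-AAC mismatches and 100% of those in Pro-AGG.

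Which tRNA the A34 reads came from is not fixed by the reads alone. A read with G at this place fits Pro-AGG with an A-to-G change and Pro-CGG or Pro-TGG with another change of the same base equally well, and this held for 100% of the mismatched Pro-AGG reads; the same held between Val-AAC and Val-CAC for 59.6%. Such reads were assigned to the most frequent placement. Leaving them out, the mean share of Val-AAC was 94.5%. Among reads assigned to the sister tRNAs, G at base 34 was in 0 of 1691 of Pro-CGG, 0 of 8961 of Pro-TGG, 0 of 3183 of Val-TAC and 9 of 4039 of Val-CAC (0.223%). Placement enters these counts too, since a G in a Pro-CGG or Pro-TGG read that also fits Pro-AGG would have been given to Pro-AGG. The counts of 0 therefore set no limit on G in Pro-CGG or Pro-TGG.

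C32, which precedes the invariant T33 in the anticodon loop, was mismatched in nearly every read of Arg-CCT. Methylation to m3C at this base, by METTL2 and METTL6 enzymes, is known in Thr, Ser and Arg tRNAs. In Arg-CCT, 12312 of 12817 covering reads had another base at C32, the largest number of mismatched reads of any site. The share was 95.8%, 95.7% and 96.1% in untreated and 94.9%, 96.1% and 97.1% in taurocholate libraries, with means of 95.9% ± 0.207 and 96.0% ± 1.13 (SD, n = 3 each). The groups overlapped, and the log2 odds ratio was 0.12 (SE 0.26, edgeR quasi-likelihood adjusted p 0.998). T was 83.7% of the mismatches, A 10.4% and G 5.98%. The share was 97.0% in reads of 30 nt or less and 96.0% in reads of 31 to 50 nt. These values were measured after the demethylation step.

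The other 12 sites of the C32 list were at 0.366% or less. Lys-CTT, with 64226 covering reads, was at 0.131% ± 0.0659 and 0.101% ± 0.0105 (SD, n = 3 each), and Gly-GCC, with 55213, at 0.163% ± 0.0593 and 0.133% ± 0.0335. The list's median was 0.148%, beside 0.188% over all sites. Gly-CCC, whose gene copies differ at base 32, was outside the list because T is its more frequent base. In its reads assigned to a C there, 1230 of 1782 (69.0%, Wilson 95% interval 66.8% to 71.1%) had a mismatch, 1229 of them C-to-T and 1 C-to-A. By group these were 521 of 918 untreated and 709 of 864 taurocholate reads. Over all Gly-CCC reads the share at base 32 was 25.1%, 21.9% and 13.5% in untreated and 29.1%, 21.2% and 30.5% in taurocholate libraries, and the groups overlapped (log2 odds ratio 0.58, SE 0.29, edgeR quasi-likelihood adjusted p 0.998). Arg-CCT thus showed all 3 changes of C, and Gly-CCC almost a single one.

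A58 in the T loop was the base with the most sites of high share. It carries m1A in most tRNAs, made by the TRMT6/TRMT61A enzyme, and lies in the fold that joins the T loop to the D loop. Of 22 covered A58 sites, 17 were at 1% or more, and the shares ran from 0.448% (Glu-TTC) to 64.0% (Gly-CCC), with a median of 4.01%. A-to-T was 95% of the mismatches, A-to-G 3.96% and A-to-C 1.01%. The 3 neighbours had lower medians: 0.0770% at base 57, 0.250% at base 59 and 0.184% at base 60.

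Among the A58 sites Gly and Tyr tRNAs were highest. Gly-CCC was at 60.3%, 69.8% and 58.3% in untreated and 55.8%, 68.4% and 71.6% in taurocholate libraries. Gly-CCC/GCC, reads that both anticodons share, was at 40.8%, 51.7% and 44.1% and at 36.8%, 51.4% and 53%. For both, taurocholate 1 was lowest, taurocholate 2 and 3 and untreated 2 were high, and the groups overlapped. Tyr-GTA was at 42.5%, 45.4% and 35.2% in untreated and 41.6%, 51.7% and 55.5% in taurocholate libraries, with means of 41.0% ± 5.26 and 49.6% ± 7.18 (SD, n = 3 each). Its log2 odds ratio was 0.50 (SE 0.26, edgeR quasi-likelihood adjusted p 0.998), and taurocholate 1 lay below untreated 1 and 2. Gly-TCC had means of 29.3% ± 2.48 and 32.4% ± 6.41.

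The share at A58 went with the bases that follow it. This was noticed in the values and is given as a description. In 6 sites A58 is followed by TT (Gly-CCC, Gly-CCC/GCC, Gly-TCC, Tyr-GTA, Glu-CTC/TTC and Asp-GTC), as in the reads printed above. Their shares ran from 4.27% to 64.0% with a median of 38.1%, and A-to-T made up 92.3% to 99.1% of their mismatches. In the other 16 sites the shares ran from 0.448% to 10.6% with a median of 2.66%, and A-to-T was 49.3% and A-to-G 41.9% of the pooled mismatches. Per site A-to-T ran from 8.33% to 92.3% there, so the groups of sites overlapped in this measure: Phe-GAA, followed by TC, had 24 of 26 mismatches to T. Sites followed by AT, such as Gln-CTG (10.6%), Leu-CAG (6.65%), Ser-GCT (6.07%) and Thr-AGT (3.76%), held a mixture: in Gln-CTG 47.5% of mismatches were to T and 48.1% to G. Glu-TTC, in which CT follows, was at 0.448%, and the Glu-CTC/TTC reads, in which TT follows, at 13.3%. Of the 18 rebuilt Glu-CTC/TTC references 1 has T at this base. The site was read base 4 in 11591 of 12446 Glu-TTC reads and in 230 of 1038 Glu-CTC/TTC reads. Gln-CTG, shown because AT follows its A58, has base 58 in capitals.
Gln-CTG base 58, no mismatch: tcaAatctcggtggaacctcca
Gln-CTG base 58, mismatch: tcaTatctcggtggaacctcca

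At the highest A58 sites most reads began 3 bases before the site. In Gly-CCC/GCC, 12221 of 12385 covering reads had A58 as read base 4. The share was not confined to that start, and its size at later read bases differed between sites. In Gly-CCC it was 66.4% at read base 4 and 63.3% at read base 8 or later, and in Asp-GTC 4.67% at read base 8 or later against 0.354% at read base 4. In Tyr-GTA it was 47.1% at read base 4 and 23.3% at read base 8 or later. The later reads were also lower in Glu-CTC/TTC (11.7% against 22.2%) and Gln-CTG (4.22% against 11.7%). They were higher in Val-TAC (4.09% against 0.678%) and Ala-CGC/TGC (3.57% against 0.529%). At read base 4 of miRNA reads 0.201% had a mismatch. Other mismatches in the covering reads were common at these sites, in 35.7% of the Tyr-GTA reads and 18.5% of the Gly-CCC/GCC reads. Among reads with none, the mean share was 71.2% and 56.9%. With every read that covers the base at any place in the read it was 30.9% and 45%.

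Between the groups, 17 of 21 tested A58 sites had a higher odds of mismatch with taurocholate and 4 a lower one, with a median log2 odds ratio of 0.19, beside 415 of 950 higher and a median of -0.06 over all tested sites. The groups did not overlap at 1 of the 21 in the higher direction (3.89% of all tested sites), Val-TAC, where 79.2% of the mismatched reads fit another base equally well. By the edgeR quasi-likelihood test none was called and none had an unadjusted p under 0.05, where 1.47% of all tested sites were higher and 2.95% lower at that level. Pooled over the list, the share was 13.7%, 17% and 11.5% in untreated and 11.3%, 17.9% and 18.3% in taurocholate libraries. Taurocholate 1 was the lowest of the 6 and taurocholate 2 and 3 were the highest, so the groups overlapped. Several A58 sites share reads of the same isoacceptors and all share the demethylation step, so the sites are not independent.

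Base 59 of Tyr-GTA, next to its A58, was also high. T59 was read as A in 74.1% of its mismatches and as C in 25.6%, and 1 of the 2 rebuilt Tyr-GTA references has A there. The share was 25.2%, 29.3% and 27.5% in untreated and 24.4%, 24.9% and 23% in taurocholate libraries. All taurocholate libraries lay below all untreated ones, with a log2 odds ratio of -0.25 (SE 0.23, edgeR quasi-likelihood adjusted p 0.998). Of the reads covering T59, 56.9% had a mismatch elsewhere and could not show 1 here. Reads mismatched at A58, which was at 41.0% in untreated and 49.6% in taurocholate libraries, are among them. The shares at A58 and T59 are therefore not independent. The share at T59 also depends on which reads count as covering. With every read that covers the base at any place in the read it was 1.93%, and among reads with no other mismatch it was 59.2%.

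At base 9 the list of G and A sites had a median of 0.181% over 25 sites, beside 0.188% over all. Base 9 is methylated by TRMT10 enzymes to m1G or m1A. The 4 at 1% or more were Gln-TTG (3.45%, 576 covering reads), Pro-AGG/CGG/TGG (2.78%), Gln-CTG (1.55%) and Pro-TGG (1.43%), each with G at this base. In Pro-AGG/CGG/TGG 79.9% of the mismatches were G-to-C, and 2 of 42 rebuilt references have C there. Lys-CTT, with 105458 covering reads and A at this base, was at 0.315% ± 0.0638 and 0.239% ± 0.0685 (SD, n = 3 each).

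At base 26 the share was high in Asn-GTT. TRMT1 dimethylates G26, between the D and anticodon stems. Asn-GTT was at 10.5%, 11.5% and 14.7% in untreated and 5.33%, 18.1% and 22% in taurocholate libraries, on 75 to 131 covering reads per library, and G-to-T was 79.8% of the mismatches. Taurocholate 1 was the lowest library and taurocholate 3 the highest. Val-CAC, with ties in 34.6% of its mismatched reads, was at 2.18% ± 0.643 and 2.44% ± 0.620, and Val-TAC at 2.36% ± 1.33 and 2.25% ± 0.575 (SD, n = 3 each). The other 3 sites of the list were at 0.395% or less. Val-AAC, the site among them at 0.0788%, had a mismatch elsewhere in 91.7% of its covering reads, which could not show 1 here.

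At base 37, next to the anticodon, the list of A and G sites had a median of 0.401% over 24 sites. The base carries m1G, made by TRMT5, where it is G, and bulky derivatives of A such as t6A or i6A. The 3 sites at 1% or more all had G: Cys-GCA (3.75%, 89.4% of it G-to-C), His-GTG (2.41%, 64.1% of it G-to-T) and Pro-TGG (1.44%). His-GTG was at 1.59%, 2.53% and 1.34% in untreated and 5.10%, 2.53% and 1.38% in taurocholate libraries, with taurocholate 1 above the rest; without reads of 51 nt its mean share was 0.987%. Lys-CTT, with A37, was at 0.226% ± 0.055 and 0.273% ± 0.0324.

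In the D loop, T and C at bases 20, 20a and 20b had a median of 0.227% over 39 sites. DTWD1 and DTWD2 add acp3U at these bases, and dihydrouridine is common there. The highest were base 20a of Val-CAC (18.3%) and of Val-AAC/CAC (6.88%). Of their mismatched reads 94.5% and 96.6% fit another base equally well, so the site is uncertain. In Val-AAC/CAC all 3 taurocholate libraries lay above the untreated ones, at 7.23% ± 0.339 against 6.54% ± 0.241 (log2 odds ratio 0.15, SE 0.22). Base 20 of Gln-CTG, with no such tie, was at 3.33% ± 0.928 and 3.75% ± 0.718 (SD, n = 3 each), 96.3% of it T-to-C. Base 20 of Lys-CTT, with 143367 covering reads, was at 0.222% ± 0.0278 and 0.223% ± 0.0399.

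Base 47 and C in long variable arms, the places of acp3U and of a further m3C, had a median of 0.276% over 22 sites. The highest, Trp-CCA at 1.42%, rested on 7 mismatched reads, all of them with a tie. Lys-CTT was at 0.494% ± 0.0259 and 0.430% ± 0.138 (SD, n = 3 each). T54, T55 and C56 of the T loop, the first pair of which are known as ribothymidine and pseudouridine, had a median of 0.222% over 11 sites and a highest share of 0.844%.

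G6 in the acceptor stem was elevated in many tRNAs. This list was made after its values were seen; THUMPD3 is known to methylate G6 to m2G. Of 14 sites with G at base 6, 11 were at 1% or more, with a median of 1.75% and a highest share of 5.70% (Ser-GCT). Lys-CTT, with 103242 covering reads, was at 1.85%, 1.83% and 1.92% in untreated and 1.77%, 1.88% and 2.04% in taurocholate libraries. Gly-GCC was at 1.71% ± 0.244 and 1.79% ± 0.130 (SD, n = 3 each), and Tyr-GTA at 1.18% ± 0.108 and 1.02% ± 0.0515. The groups overlapped at all 14 sites.

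The base put in place of G6 differed between tRNAs. G-to-A was 76.6% of the Lys-CTT mismatches and 66.1% of those of Tyr-GTA, whereas G-to-T was 86.9% of the Gly-GCC and 87.3% of the Gly-TCC mismatches. Of the 19 rebuilt Lys-CTT references 1 has A at base 6, whereas none of the 11 of Gly-GCC has T and none of the 2 of Tyr-GTA has A. T, the most frequent change at both, is at base 6 in 10 of 42 references of Pro-AGG/CGG/TGG and 3 of 18 of Glu-CTC/TTC. The shares there were 1.90% and 1.75%. At the neighbours the medians were 0.156% at base 5 and 0.189% at base 7. In Lys-CTT the share was 1.79% in reads that start at base 1 and 2.02% in reads that start later. At read base 6 of tRNA reads that start later 0.245% had a mismatch, as did 0.194% of miRNA reads. Lys-CTT and Gly-GCC are shown for the contrast, with base 6 in capitals.
Lys-CTT base 6, no mismatch: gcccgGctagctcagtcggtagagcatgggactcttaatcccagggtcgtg
Lys-CTT base 6, mismatch: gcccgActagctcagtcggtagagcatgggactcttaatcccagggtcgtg
Gly-GCC base 6, no mismatch: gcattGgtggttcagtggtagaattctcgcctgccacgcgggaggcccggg
Gly-GCC base 6, mismatch: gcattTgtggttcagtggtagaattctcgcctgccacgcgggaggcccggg

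Bases without a list of their own were high in the acceptor stem and the D arm. In all, 31 sites were at 5% or more, 9 of them at base 58 and 8 in stems. At 8 of the 31, over 50% of the mismatched reads could be placed equally well at another base. Lys-TTT A69 was mismatched in 94.0%, 96.1% and 95.9% of untreated and 94.1%, 95.6% and 95.7% of taurocholate reads, and 99.9% of its mismatches were A-to-G. The 17 nt mismatched read printed above had 5899 reads against 106 of its error-free partner. The groups overlapped, with a log2 odds ratio of -0.10 (SE 0.26), and the 1 rebuilt Lys-TTT reference covering this base has A. With a single reference, a gene copy with G that the set lacks cannot be told from a modified base here, and this was not tested. Cys-GCA C69 was mismatched in 12%, 13.7% and 13.9% of untreated and 8.40%, 16.7% and 14.5% of taurocholate reads, on 76864 covering reads in all, and 98.9% of this was C-to-T. Other stem sites without ties were C6 of Val-CAC (11.8%, 98.6% of it C-to-T, the base that 2 of 7 rebuilt references have), G67 of Leu-TAG (10.5%, 98.9% G-to-A) and C67 of Ser-GCT (6.44%).
Cys-GCA base 69, no mismatch: tccgggtgcCccctcca
Cys-GCA base 69, mismatch: atccgggtgcTccctcca

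In the D arm, reads assigned to Leu-CAG and Tyr-GTA had T in place of C at base 16. Leu-CAG was at 35.9%, 38% and 32.5% in untreated and 38.1%, 36% and 35.9% in taurocholate libraries, and 99.5% of the change was C-to-T. The share was 36.5% in reads of 30 nt or less, but 1 of 23 reads of 31 to 50 nt had the mismatch. It was 37.3% in reads that start at base 1 and 16.7% in reads that start later. None of the 5 rebuilt Leu-CAG references has T there. Whether these reads come from a tRNA that the reference set lacks was not tested. In Tyr-GTA the share was 9.97% ± 0.915 and 9.22% ± 1.08 (SD, n = 3 each). Both sets of groups overlapped. Leu-TAG base 16 was at 74.1% on 586 covering reads and at 22.6% with every read that covers it at any place in the read, and 95.9% of its mismatched reads fit Leu-AAG equally well with a change at another base. In the long arm of Leu-AAG, an A was mismatched in 36.8% ± 1.04 and 36.2% ± 0.540, and 99.6% of this was A-to-G.
Tyr-GTA base 16, no mismatch: ccttcgatagctcagCtggtagagc
Tyr-GTA base 16, mismatch: ccttcgatagctcagTtggtagagc

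The last anticodon base of Gly-GCC, C36, was mismatched in 7.84%, 9.74% and 6.28% of untreated and 19.6%, 10.1% and 9.69% of taurocholate reads. Taurocholate 1 stood above the other 5 libraries, and taurocholate 3 lay just below untreated 2, so the groups overlapped. The log2 odds ratio was 0.75 (SE 0.28, edgeR quasi-likelihood adjusted p 0.998), and 98.5% of the mismatches were C-to-A. The share was 14.7% in reads of 51 nt, 8.68% in reads of 31 to 50 nt and 1.98% in shorter ones. Reads of 51 nt were most frequent in taurocholate 1, and their part in this difference was not tested.
Gly-GCC base 36, no mismatch: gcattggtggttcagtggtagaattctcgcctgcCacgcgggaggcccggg
Gly-GCC base 36, mismatch: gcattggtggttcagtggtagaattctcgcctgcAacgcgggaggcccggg

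Over all internal mismatches C-to-T and A-to-G were the most frequent changes in both groups. C-to-T made up 26.3% ± 0.722 of the untreated and 24.4% ± 4.48 of the taurocholate mismatches (SD, n = 3 each), A-to-G 20.5% ± 1.49 and 20.5% ± 2.53, and A-to-T 8.98% ± 0.984 and 10.7% ± 2.40. Each of these differences was smaller than the larger SD. At sites under 1%, A-to-G was the most frequent change with 20.5% of mismatched reads, then T-to-C with 17.6% and G-to-A with 10.2%, while A-to-T was 3.91%. By base of the reference the median share was 0.299% at A, 0.275% at T, 0.155% at C and 0.106% at G.

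No site differed between untreated and taurocholate cells past the threshold. Of 950 sites with at least 10 mismatched reads, the edgeR quasi-likelihood test on mismatched and matched reads called 0 at an adjusted p of 0.05 (0.0% higher and 0.0% lower), with a smallest adjusted p of 0.845. Before adjustment 42 sites had p under 0.05, 14 higher (1.47%) and 28 lower (2.95%) with taurocholate. DESeq2 called 0, with 12 at that level, 3 of them higher, and limma called 0, with 50, of which 17 were higher. The shares of the groups did not overlap at 37 sites in the higher direction (3.89%) and at 58 in the lower (6.11%). Of 2-fold changes put into simulated counts of this size, 15.6% were found, and of 4-fold changes 70.8%. At sites with 100 or more mismatched reads these were 43.3% and 100%. All were increases of the odds with taurocholate, put at sites outside those of highest share, with 1 spread for all sites. How many decreases, or changes at the sites of highest share, would be found was not simulated.

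The 10 sites of smallest p with at least 30 mismatched reads are given as values, since none passed. Base 59 of Gln-CTG was mismatched in 1.28%, 1.34% and 2.84% of untreated and 0 of 277, 0.322% and 0.357% of taurocholate reads, 96.9% of it A-to-G. The groups did not overlap, with a log2 odds ratio of -3.06 (SE 0.82, edgeR quasi-likelihood adjusted p 0.845), but this rested on 32 mismatched reads, 25 of them in untreated 3. C62 in the T stem of Ala-AGC was at 0.307% ± 0.165 and 0.122% ± 0.038 (SD, n = 3 each), and the same base of Ala-CGC/TGC at 0.272% ± 0.0638 and 0.184% ± 0.0355. Their log2 odds ratios were -1.24 (SE 0.41) and -0.56 (SE 0.24), and base 64 of Ala-CGC/TGC, with ties in 98.3% of its mismatched reads, was at -0.60 (SE 0.26). In His-GTG, base 7 was at 0.81 (SE 0.34) and base 11 at -0.90 (SE 0.39). The others were positive: Val-CAC base 22 at 1.65 (SE 0.67), base 3 in reads that the Ala tRNAs of AGC, CGC and TGC anticodons share, with 1.21 (SE 0.49), Gly-GCC base 42 at 1.03 (SE 0.45) and Gly-GCC base 36, described above.

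By list, the odds of a mismatch were higher with taurocholate at 10 of 17 tested base 9 sites, 4 of 4 G26, 4 of 8 C32, 7 of 15 base 37, 13 of 27 base 20, 2 of 5 base 47, 2 of 3 T loop and 4 of 14 G6 sites. The median log2 odds ratios were 0.01, 0.22, -0.08, -0.07, -0.04, -0.04, 0.17 and -0.05, beside -0.06 over all tested sites. Val-AAC base 34 was the sole list site with an unadjusted p under 0.05.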

How the data were processed

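Small RNA of 6 AR42J libraries was analysed from the authors' deposited alignment files. Read counts are the deposited unit: per the file headers a row pairs 1 distinct sequence and its count with a tRNA, an alignment start and any mismatch. FastQC, cutadapt and Novoalign 2.07.11 are named in the submitters' processing notes; the genome build is not given in the sources used here, so sites are given as bases of the mature tRNA without genome coordinates. Groups and replicate numbers come from the labels.

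Each read sequence counted 1 time per library with its reads. Sequences that also fit mitochondrial tRNA were left out. Reference bases were rebuilt from reads and alignments for 400 tRNAs. Canonical bases 1 to 16 were counted from the 5′ end, 21 to 44 from the anticodon and 48 to 76 from the CCA end; 41 sites stayed unnumbered. A read that placed its mismatch equally well at several bases went to the most frequent one. Intervals cover counting error only.

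Mismatched against matched reads went into edgeR 4.0.16 under R 4.3.3 (quasi-likelihood, 1 intercept per library, group on the log odds, Benjamini-Hochberg over 950 sites). DESeq2 1.42.0, limma 3.58.1 with an offset of 0.5, other denominators, coverage minimums and read subsets, and leaving out libraries were alternatives; 2 were added after the values were seen. The test was run on simulated counts. Named sites are the 12 of highest share, the 10 of smallest p with at least 30 mismatched reads and up to 5 best covered per list; A58, G6 and stem sites beyond these were chosen after their values were seen. Members and lists were chosen with earlier results of these data known.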

Additional observations from a re-analysis of the deposited data

How the results depend on the processing

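No setting called a site: over 21 alternatives 0 were called, with 12 to 68 sites at an unadjusted p under 0.05 and a smallest adjusted p of 0.0969 (without untreated replicate 2). The replicate block, using numbers that do not pair the libraries (same-numbered correlations -0.0335, -0.0417 and -0.0516 over 532 sites), called 0, with 39 at an unadjusted p under 0.05. The difference in overall rate, 0.00282 points, ran from -0.0233 to 0.0296 over its alternatives. The 10 log2 odds ratios of smallest p kept their sign in all 191 values. Those sites were picked by p in these same libraries and the alternatives reuse the same reads, so a kept sign lends them no support. List medians stayed within the spread between libraries in 88 of 90 values; with each replicate left out in turn base 37 ran from -0.25 (without taurocholate replicate 3) to 0.19 (without untreated replicate 3), against -0.07 with all, and base 47 and long arm C at 0.56 without both libraries numbered 1; the cause was not tested. Mean shares moved by more than that spread in 95 of 808 values, 56 of them with reads mismatched elsewhere left out, which takes reads from the denominator alone, and 25 without sequences counted 1 time. Sites with few covering reads or mismatched reads are limited by depth.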

Other observations

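Wobble A34 was also counted in tRNAs below the covering minimum. An alignment holds at most 1 mismatch, so a read mismatched elsewhere counts here but cannot show G. A read with G and a second mismatch is left out. The shares can therefore be too low, to an extent that may differ between tRNAs, and they do not rank the tRNAs by inosine. G was found in 120 of 121 reads of Thr-AGT (99.2%, Wilson 95% interval 95.5% to 99.9%), 297 of 385 of Arg-ACG (77.1%, 72.7% to 81.1%), 62.1% of 359 reads of Ile-AAT (57.0% to 67.0%) and 20 of 32 of Ala-AGC. In Leu-AAG it was in 2 of 49 and in Ser-AGA in 0 of 24. With at most 1 mismatch per alignment, the Ser-AGA count of 0 sets no limit. Whether reads with G were placed at sister tRNAs was not tested for these tRNAs. By group, Arg-ACG had G in 167 of 214 untreated and 130 of 171 taurocholate reads, and Ile-AAT in 121 of 186 and 102 of 173.

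C32 of Thr tRNAs, also below the minimum, was mismatched in 38 of 45 reads of Thr-CGT (84.4%, Wilson 95% interval 71.2% to 92.3%), of which 29 had T, 7 A and 2 G, and in 17 of 92 of Thr-TGT (18.5%, 11.9% to 27.6%). In Thr-AGT it was mismatched in 0 of 28 reads. At the wobble base, however, 120 of 121 Thr-AGT reads had G in place of A. An alignment holds at most 1 mismatch, so a read with that G could not also show a mismatch at C32. The Thr-AGT count of 0 therefore sets no limit on C32. In Ser-GCT C32 was mismatched in 0 of 175 reads. Any of these with a mismatch elsewhere could not show 1 at C32, so this count sets no firm limit either. Arg-TCT had 2 of 89. Thr-CGT had 23 of 26 in untreated and 15 of 19 in taurocholate libraries.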
